A study of Mus musculus with 7 samples.

Results

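The 10 genes described here (Sptlc1, Sptlc2, Degs1, Ugcg, Sgms1, Sgms2, Smpd1, Asah1, Sphk1 and Sphk2) encode enzymes that make, convert or break down ceramide. They were chosen by name, because palmitate, the fatty acid given to the donor cells of this study, is a substrate of the pathway. Every non-control probe that carries one of these names was taken, which gave 13 probes of 39429 on the array, or 10 of 31829 gene names. C2C12 cells are an established line of mouse myoblasts that can be differentiated into myotubes. Such myotubes were treated with 0.5 mM palmitate, or with BSA (bovine serum albumin, the carrier of the fatty acid) as the control with 0 mM palmitate, and their exosomes were collected 9 h after palmitate had been withdrawn. Other C2C12 cultures were then incubated for 24 h with exosomes of palmitate-treated cells (EXO-Palm, 3 arrays) or of BSA-treated cells (EXO-BSA, 4 arrays), and 0.1 ug of their RNA was hybridised to 1-colour Agilent arrays. The recipient cells themselves were not treated with palmitate. The labels call them myoblasts, while the paper calls them myotubes. The labels' cell line tag counts up from C2C12 by 1 with each sample, whereas the source of all 7 is given as C2C12, and all were taken as C2C12. The labels name each array a biological replicate, without saying whether the exosome preparations were separate too.

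In ceramide synthesis, serine palmitoyltransferase (Sptlc1 with Sptlc2) joins serine to palmitoyl-CoA, ceramide synthases attach a fatty acid, and Degs1 puts in the double bond that turns dihydroceramide into ceramide. Ceramide is then carried on to glucosylceramide by Ugcg or to sphingomyelin by Sgms1 and Sgms2, and it is released again from sphingomyelin by sphingomyelinases such as Smpd1. Asah1 splits ceramide into sphingosine and a fatty acid, and Sphk1 and Sphk2 phosphorylate sphingosine to sphingosine 1-phosphate, which acts on cell surface receptors. Ceramide accumulation in muscle exposed to saturated fatty acids is known for its link to reduced insulin signalling through Akt.

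The values below are log2 of the intensity written by the scanner software minus the 75th percentile of the same array, so that 0 is that percentile and a step of 1 is a doubling. A level on this scale belongs to its probe and is not compared between probes. The 60-base probes of Sptlc2, Sphk1 and Asah1 are shown because the results turn on these genes. They are given as the array annotation holds them, 5′ to 3′ and in lower case throughout, since the whole probe is the measured stretch.
Sptlc2, probe A_51_P321331, minus strand, chr12:88683609-88683668 (mm9): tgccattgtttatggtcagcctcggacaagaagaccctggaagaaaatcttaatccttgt
Sphk1, probe A_55_P2186005, plus strand, chr11:116397591-116397650 (mm9): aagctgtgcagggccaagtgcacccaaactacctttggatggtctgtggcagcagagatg
Asah1, probe A_55_P1964154, minus strand, chr8:42432286-42432345 (mm9): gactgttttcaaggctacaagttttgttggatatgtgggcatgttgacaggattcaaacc
The annotation places these 3 probes at positions 934, 1255 and 697 of their transcripts. Each of the 3 genes has a further probe nearer the 3′ end of its transcript, at position 3085 for Sptlc2 (A_52_P59916, chr12:88649448-88649507), 1572 for Sphk1 (A_51_P501248, chr11:116397908-116397967) and 1507 for Asah1 (A_51_P509098, chr8:42426681-42426740). Both probes of a gene thus read separate stretches of 1 transcript from the same RNA and are not replicates of each other. Whether a probe lies in a coding exon or a UTR was not looked up, since no mm9 annotation was used here.

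No probe of the 10 genes passed the test, and the largest differences were those of Sphk1 and Sptlc2. Both Sphk1 probes were higher with EXO-Palm, by 2.22-fold and 3.06-fold, and both Sptlc2 probes by 1.72-fold and 2.16-fold. The other 9 probes differed by at most 0.52 on the log2 scale in either direction. By limma's moderated test with Benjamini-Hochberg adjustment over all 21585 tested probes, 0 of the 13 were past an adjusted p of 0.05, where 0.533% of all tested probes were (0.463% higher and 0.0695% lower). At an unadjusted p under 0.05 there were 4, the probes of Sphk1 and Sptlc2, all of them higher, against 10% of all tested probes. The methods' t-test also gave 0 after adjustment and 4 without it, against 9.77% of all tested probes. All 13 probes passed the filter on dim signals, and 12 were well above background on all 7 arrays. The Ugcg spot of EXO-BSA replicate 3 was marked as an outlier by the scanner software and left out, so that Ugcg has 3 EXO-BSA values. Of the 13 probes, 7 had a fitted difference above 0 and 6 below it, with a median of 0.10 against -0.02 over all tested probes. The range was -0.52 to 1.61. In 5 probes of 3 genes the arrays of the groups did not overlap, 4 higher (Sptlc2 and Sphk1, both probes each) and 1 lower (Asah1), where 11.3% of all tested probes did not overlap. With 4 arrays against 3, the exact permutation test has 35 splits and cannot go below p = 0.0286.

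**Figure D1:**
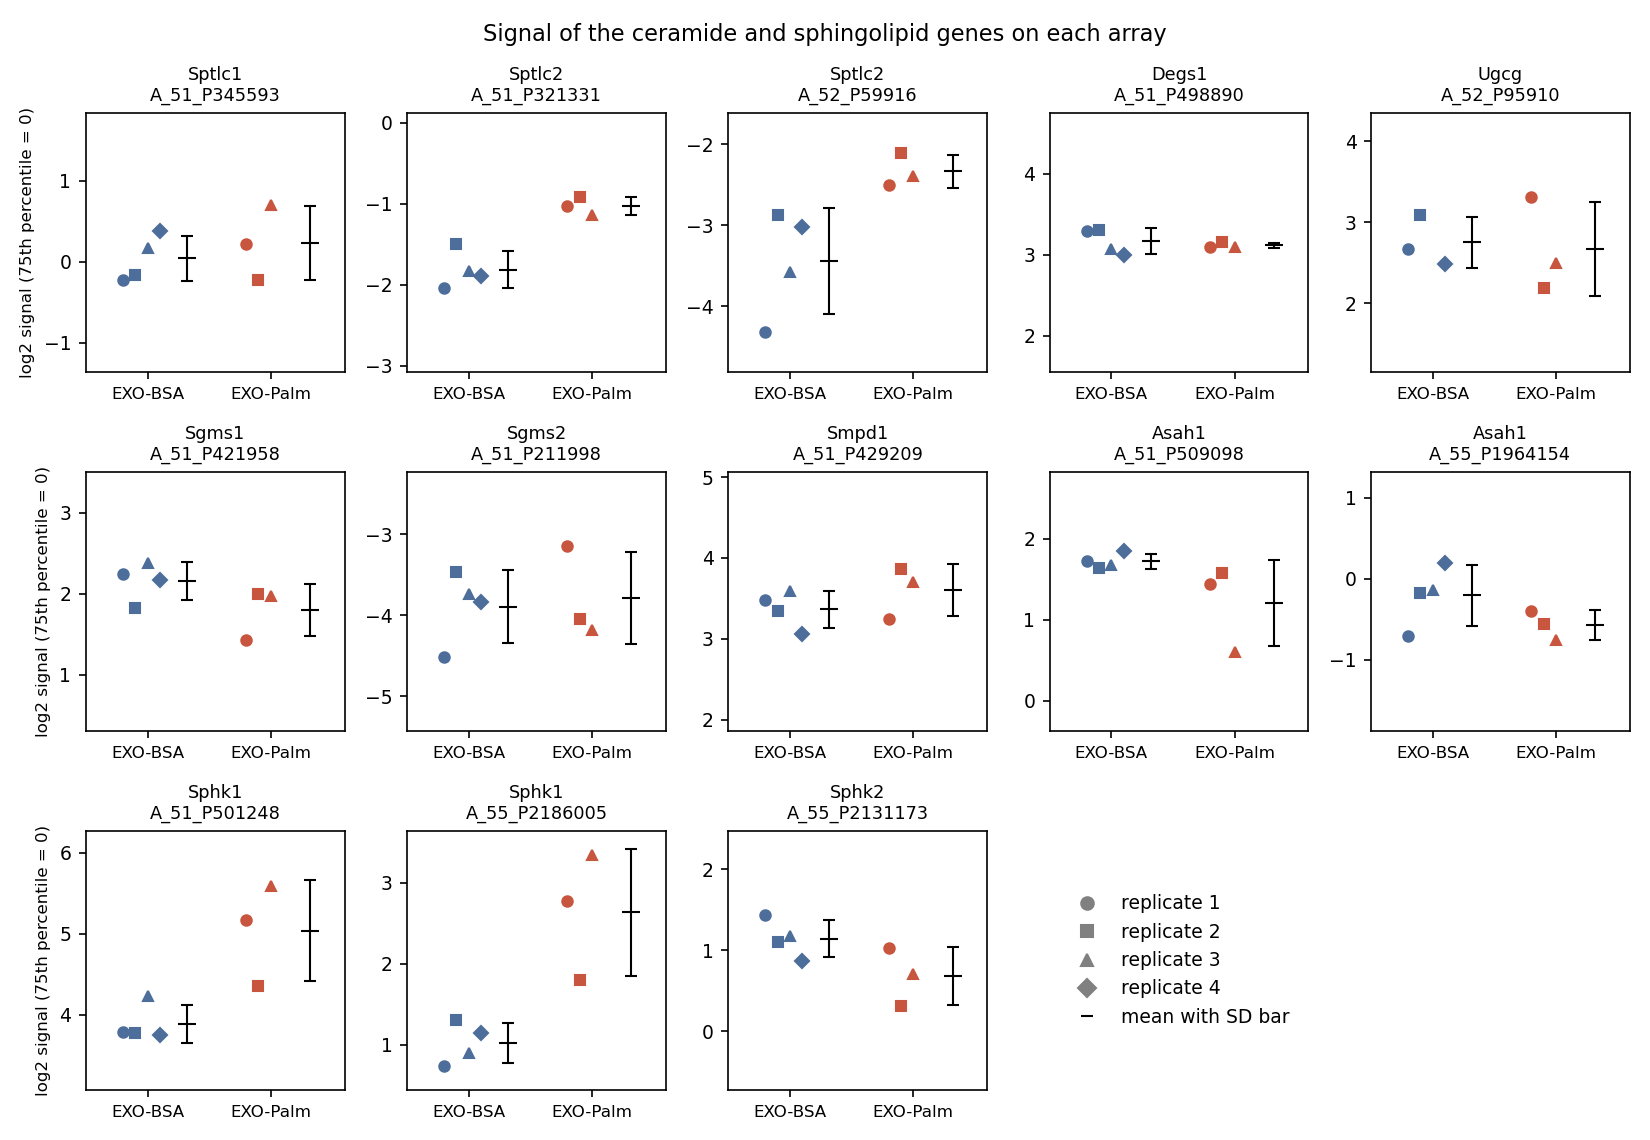
Each panel plots 1 probe, with its log2 signal relative to the array's 75th percentile on the y axis (every panel spans the same height) and the groups EXO-BSA (blue, 4 arrays) and EXO-Palm (red, 3 arrays) on the x axis. Marker shapes are replicate numbers, and the black bars are means with SD. The EXO-Palm arrays lie above all EXO-BSA arrays for both probes of Sptlc2 and of Sphk1, and below them for Asah1 probe A_51_P509098.

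The arrays differ in ways that bear on these values. The 75th percentile lay between 549.4 and 1621 in intensity, and 48.3 to 66.8% of all probes were well above background on the EXO-BSA arrays and 51.9 to 70.3% on the EXO-Palm arrays. They stood on 4 slides, of which slide 1 held EXO-BSA replicates 1 and 2 with EXO-Palm replicate 1 and slide 3 held EXO-BSA replicate 4 with EXO-Palm replicate 3. Differences within these slides are therefore given beside the pooled ones for the probes of Sptlc2, Asah1 and Sphk1. Of the myotube markers (10 genes, 14 probes, among them Acta1, Myh3 and Myog), 13 or 14 probes were well above background on each array. The summed level was taken over the 12 of these probes with a value on every array. It was 9.28 to 9.52 with EXO-BSA and 8.995 to 9.42 with EXO-Palm on the log2 scale. None of the 14 was past the test. Of the 14, 3 were fitted higher and 11 lower, where 47.3% of all tested probes were fitted higher. The groups did not overlap in 4 of them, 1 higher and 3 lower (11.3% of all tested probes). At an unadjusted limma p under 0.05 there were 3, 1 higher and 2 lower, against 10% of all tested probes. Of 8 probes for leukocyte, endothelial, adipocyte, epithelial and liver markers, only Pecam1 was well above background on all arrays, while Cdh5, Epcam and Alb were so on none. Proliferation markers differed between the groups. All 14 tested probes of 17 were higher with EXO-Palm, by a median of 2.25. Of them 8 passed the test (probes of Ccnb1, Birc5, Top2a, Plk1, Bub1 and Mki67), where 0.533% of all tested probes did. The groups did not overlap in 12, all higher (11.3% of all tested probes). An unadjusted limma p under 0.05 was reached by 13, against 10% of all tested probes. The summed log2 level of the tested probes was 2.81 to 3.06 with EXO-BSA and 5.13, 4.40 and 5.78 on EXO-Palm replicates 1 to 3. In bulk RNA, fewer cells of a type and less RNA per cell cannot be told apart.

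Serine palmitoyltransferase carries out the step at which palmitate enters the pathway. Sptlc1, its subunit without the cofactor site, had log2 signals of -0.22, -0.16, 0.17 and 0.38 on EXO-BSA replicates 1 to 4 and of 0.22, -0.22 and 0.70 on EXO-Palm replicates 1 to 3. The groups overlapped, and the difference was 0.19 ± 0.27 (SE, limma adjusted p = 0.852). It turned to -0.13 with the normexp background correction and to -0.11 in the authors' processed values.

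Sptlc2, the catalytic partner that binds the cofactor, was measured by 2 probes. Probe A_51_P321331 read -2.04, -1.49, -1.82 and -1.89 with EXO-BSA, and -1.03, -0.92 and -1.13 with EXO-Palm. All EXO-Palm arrays lay above all EXO-BSA arrays, and the spread within each group was small (SD 0.23, n = 4, and 0.11, n = 3). The fitted difference was 0.78 (95% interval 0.31 to 1.26), with an adjusted p of 0.217 from limma and an exact permutation p of 0.0286. Within slides 1 and 3 the difference was 0.74 and 0.76. Over all alternatives it stayed between 0.71 and 0.89. The limma adjusted p was 0.458 with slide as a fixed block and 0.149 with slide as a random block.

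The second probe of Sptlc2, A_52_P59916, read -4.31, -2.87, -3.58 and -3.02 on the EXO-BSA arrays and -2.50, -2.11 and -2.39 on the EXO-Palm arrays. Here too the groups did not overlap, although EXO-BSA replicate 2 came within 0.37 of the lowest EXO-Palm array and the EXO-BSA arrays spread widely (SD 0.66, n = 4). The difference was 1.11 (95% interval 0.31 to 1.91; limma adjusted p = 0.323, exact permutation p = 0.0571), with 1.09 within slide 1 and 0.63 within slide 3. It was 0.60 after normexp, the lowest value of any alternative. With slide as a fixed block it was 0.89 (limma adjusted p = 0.573), and with slide as a random block 1.06 (limma adjusted p = 0.274). Since Sptlc1 and Sptlc2 form 1 enzyme, their ratio within each array was also compared. Sptlc1 relative to Sptlc2 was lower with EXO-Palm by a difference of -0.60, with overlapping groups (exact permutation p = 0.171, adjusted p = 0.229 over 4 gene pairs).

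Degs1, the desaturase that completes ceramide, had nearly the same signal on every array. It read 3.30, 3.31, 3.08 and 2.99 with EXO-BSA and 3.1, 3.16 and 3.09 with EXO-Palm. The difference was -0.05, and its 95% interval of -0.49 to 0.38 reaches from 1.4-fold lower to 1.3-fold higher (limma adjusted p = 0.946). This was the narrowest interval among the 13 probes. The sign depended on the scaling, with 0.0037 after quantile normalisation and 0.18 in the authors' processed values.

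Ugcg, which makes glucosylceramide, varied more between arrays than between groups. Its log2 signal was 2.68, 3.1 and 2.49 on EXO-BSA replicates 1, 2 and 4, and 3.31, 2.19 and 2.50 on the EXO-Palm arrays. EXO-Palm replicate 1 was the highest of all arrays and replicate 2 the lowest. The difference was -0.09 (95% interval -0.88 to 0.70; limma adjusted p = 0.952). It changed sign with slide as a fixed block (0.25).

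The sphingomyelin synthases did not differ past the test either. Sgms1, the Golgi enzyme, read 2.24, 1.83, 2.38 and 2.17 with EXO-BSA and 1.43, 2.00 and 1.97 with EXO-Palm. Only EXO-BSA replicate 2 overlapped with the EXO-Palm arrays, and the difference was -0.36 ± 0.24 (SE, limma adjusted p = 0.659). Sgms2, which also works at the plasma membrane, was dim but well above background on all 7 arrays, with -4.52, -3.47, -3.74 and -3.84 against -3.14, -4.05 and -4.18. EXO-Palm replicate 1 was the highest and EXO-BSA replicate 1 the lowest array, and the difference was 0.10 ± 0.34 (SE, limma adjusted p = 0.943). Without either of these arrays the sign turned (-0.22 without EXO-Palm replicate 1, -0.11 without EXO-BSA replicate 1). Sgms1 relative to Sgms2 differed by -0.46 with overlapping groups (exact permutation p = 0.457).

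Smpd1, the acid sphingomyelinase of the lysosome, returns ceramide from sphingomyelin. It read 3.48, 3.34, 3.59 and 3.06 with EXO-BSA and 3.24, 3.87 and 3.71 with EXO-Palm. EXO-Palm replicates 2 and 3 lay above and replicate 1 within the EXO-BSA range. The difference was 0.24 ± 0.24 (SE, limma adjusted p = 0.775), and its sign within slide 1 (-0.17) was opposite to that within slide 3 (0.65).

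Asah1, the acid ceramidase, was lower on average with EXO-Palm by both probes, and neither difference passed the test. Probe A_51_P509098 read 1.72, 1.64, 1.67 and 1.85 with EXO-BSA, a range of 0.21, and 1.44, 1.58 and 0.60 with EXO-Palm. The groups did not overlap, but EXO-Palm replicates 1 and 2 lay 0.20 and 0.06 below the lowest EXO-BSA array, and replicate 3 accounts for most of the difference. That difference was -0.52 (95% interval -1.12 to 0.09; limma adjusted p = 0.570, exact permutation p = 0.0286), and it was -0.21 without EXO-Palm replicate 3. Within slide 1 it was -0.24 and within slide 3 -1.25. The groups overlapped when arrays were centred on their median, after normexp and in the authors' processed values.

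The other Asah1 probe, A_55_P1964154, read -0.70, -0.17, -0.14 and 0.20 with EXO-BSA and -0.40, -0.55 and -0.76 with EXO-Palm. EXO-BSA replicate 1 fell among the EXO-Palm arrays. The difference was -0.36 ± 0.25 (SE, limma adjusted p = 0.671), 0.04 within slide 1 and -0.96 within slide 3, and it was 0.0018 in the authors' processed values.

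Sphk1, the kinase that makes sphingosine 1-phosphate in the cytosol and at the plasma membrane, showed the largest difference of the 10 genes. Its probe A_51_P501248 read 3.78, 3.77, 4.23 and 3.75 on EXO-BSA replicates 1 to 4. On EXO-Palm replicates 1 to 3 it read 5.17, 4.35 and 5.58. Every EXO-Palm array lay above every EXO-BSA array, with EXO-Palm replicate 2 only 0.12 above EXO-BSA replicate 3 and the other two 0.94 and 1.35 above it. The difference was 1.15 (95% interval 0.45 to 1.85; limma adjusted p = 0.219, exact permutation p = 0.0286), and 1.27 without EXO-BSA replicate 3, which stood apart from the other EXO-BSA arrays. In intensity, before the percentile was subtracted, the EXO-BSA arrays read 9780 to 15986 and the EXO-Palm arrays 58305, 13266 and 26320, so that EXO-Palm replicate 2 lay above the EXO-BSA arrays after scaling and not before.

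Probe A_55_P2186005 of Sphk1 gave the same order of the EXO-Palm arrays. It read 0.74, 1.30, 0.90 and 1.15 with EXO-BSA, and 2.77, 1.80 and 3.34 with EXO-Palm. The groups were parted by 0.495. The difference was 1.61 (95% interval 0.81 to 2.42; limma adjusted p = 0.132, exact permutation p = 0.0286). EXO-Palm replicate 2 decided whether Sphk1 passed the test. Without that array the differences were 1.49 and 2.03 with adjusted p-values of 0.0457 and 0.0195 from limma, the only alternative with adjustment over all probes in which a probe of the 10 genes was called. Within slide 1 the differences were 1.39 and 1.75, and within slide 3 they were 1.83 and 2.19, both without EXO-Palm replicate 2, which had a slide of its own. With slide as a fixed block the adjusted p-values were 0.0669 and 0.0541, and with slide as a random block 0.120 and 0.0685.

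The summed level of the proliferation markers had the same order over the EXO-Palm arrays as both Sphk1 probes, lowest on replicate 2 and highest on replicate 3. Sptlc2 did not follow that order, since replicate 2 was its highest EXO-Palm array by both probes. Sptlc1, whose groups overlapped, had the same order as Sphk1, and Asah1 probe A_51_P509098 had the reverse. The order was thus not particular to Sphk1. The part of the cell cycle genes in the Sphk1 difference was not tested.

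Sphk2, the second sphingosine kinase, which is found largely in the nucleus and mitochondria, lay on the other side. It read 1.43, 1.1, 1.18 and 0.87 with EXO-BSA and 1.03, 0.31 and 0.70 with EXO-Palm. EXO-Palm replicate 1 lay within the EXO-BSA range and the other EXO-Palm arrays below it. The difference was -0.46 ± 0.24 (SE, limma adjusted p = 0.582), and it kept its sign within slide 1 (-0.23) and slide 3 (-0.17).

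**Figure D2:**
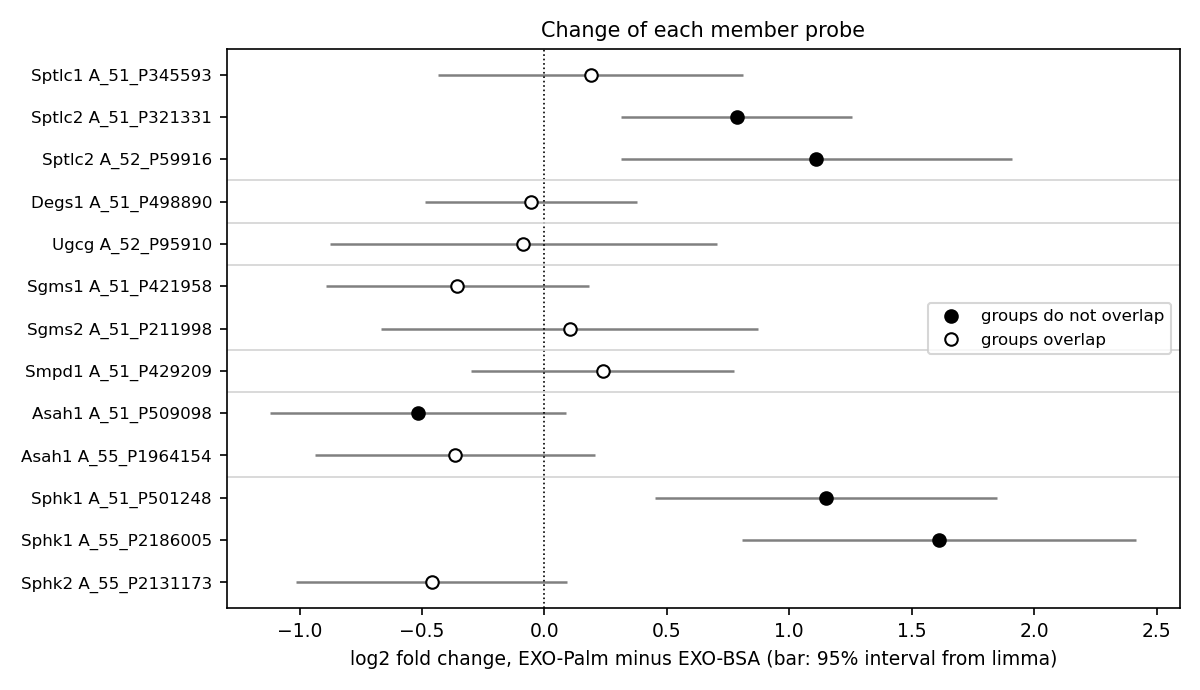
Points are the fitted log2 fold changes of the 13 probes (x axis, EXO-Palm minus EXO-BSA), listed in the order of the pathway, and bars are 95% intervals from limma. Filled points mark probes whose groups do not overlap. The intervals of both probes of Sptlc2 and of Sphk1 lie above 0 before adjustment, and the other 9 include 0.

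The ratio of Sphk1 to Sphk2 within an array does not depend on the percentile that was subtracted. With the EXO-BSA mean set to 0, the log2 ratio was -0.39, -0.06, 0.31 and 0.14 on the EXO-BSA arrays and 1.40, 1.30 and 2.14 on the EXO-Palm arrays. The groups were far apart relative to their spread (SD 0.30, n = 4, and 0.46, n = 3). The shift was 1.61, with an exact permutation p of 0.0286, the smallest possible, and 0.114 after adjustment over the 4 gene pairs compared. Sphk1 was also set against Sgpl1, the lyase that degrades sphingosine 1-phosphate. That log2 ratio was -0.65, 0.00, 0.92 and -0.27 with EXO-BSA and 1.41, 0.95 and 2.13 with EXO-Palm. The groups did not overlap, by a margin of 0.03, and the shift of 1.5 had an exact permutation p of 0.0571 (0.114 after adjustment). A shift in such a ratio shows that the probes moved unequally, not that either gene kept its level.

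**Figure D3:**
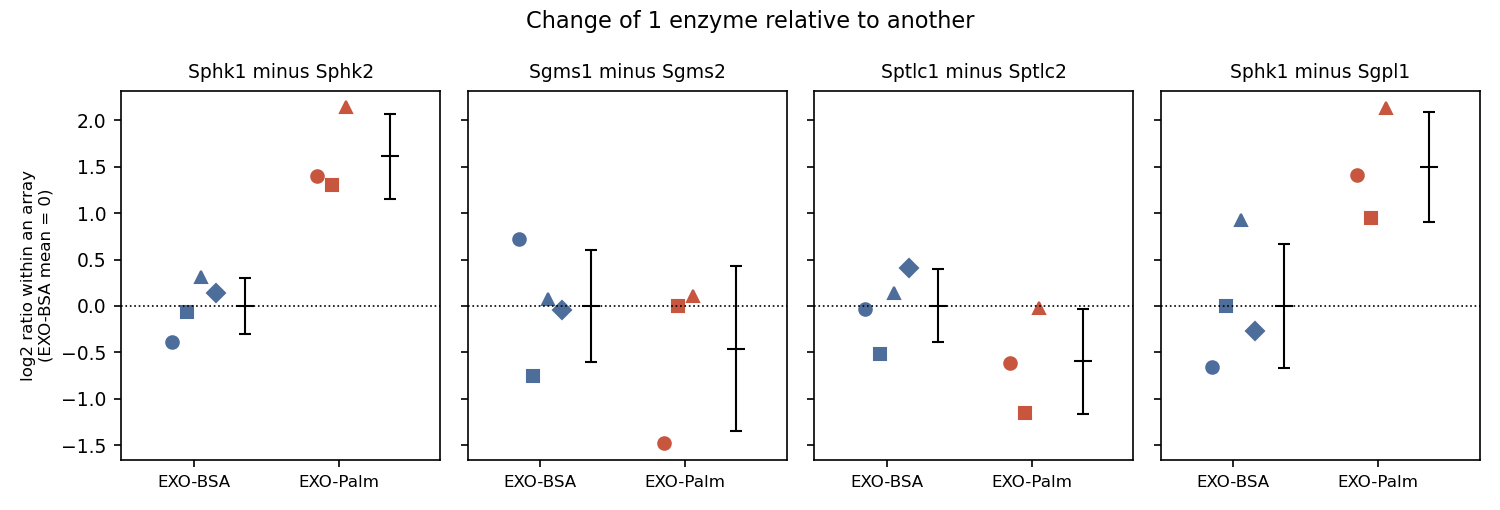
Each panel plots, for every array, the log2 signal of 1 gene minus that of another, shifted so that the EXO-BSA mean is 0 (y axis), in EXO-BSA (blue) and EXO-Palm (red). Marker shapes are replicate numbers as in the plot of signals by probe, and black bars are means with SD. The ratios of Sphk1 to Sphk2 and to Sgpl1 lie higher in all 3 EXO-Palm arrays, while those of Sgms1 to Sgms2 and Sptlc1 to Sptlc2 overlap.

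The rest of the pathway was followed in a list of 43 other sphingolipid genes, 40 of which are on the array with 47 probes. The Cers genes carry their older name Lass on this array. Of the 47 probes, 30 (28 genes) passed the filter on dim signals and 11 were well above background on no array. None of the 30 was called by limma, where 0.533% of all tested probes were, and 4 had an unadjusted p under 0.05, 2 higher and 2 lower, against 10% of all tested probes. The methods' t-test gave 0 with adjustment and 3 without, against 9.77% of all tested probes. The median difference was -0.06 against -0.02 over all probes, with 13 probes above 0 and 17 below. In 4 tested probes the groups did not overlap, 1 higher (5.40% of all tested probes) and 3 lower (5.87% of all tested probes).

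Among the regulators of serine palmitoyltransferase, the 4 tested probes were those of the Ormdl proteins, which hold the enzyme back. All were fitted lower, from -0.02 for Ormdl1 to -0.61 for 1 probe of Ormdl2, where 47.3% of all tested probes were fitted higher. None had an unadjusted limma p under 0.05. Sptlc3, an alternative partner of Sptlc1, was well above background on no array. Of the ceramide synthases, Cers4, which makes ceramides with long acyl chains, had a difference of 0.73 from -3.84, -3.55, -3.21 and -4.16 to -3.05, -3.36 and -2.47, with overlapping groups (limma adjusted p = 0.471). Cers2, the synthase of very long acyl chains, lay on the other side without overlap, at 1.12, 1.34, 1.12 and 1.76 with EXO-BSA and 1.03, 1.08 and 0.80 with EXO-Palm. Its difference was -0.36, and the gap between the groups was 0.03 (limma adjusted p = 0.643). Cers5 and Cers6 were well above background on all arrays and differed by -0.17 and 0.34.

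Among the sphingomyelinases, Smpd2, a neutral enzyme of the endoplasmic reticulum, was the 1 probe of the list that was higher without overlap. It read -1.13, -0.87, -0.66 and -0.68 with EXO-BSA and -0.46, -0.07 and -0.12 with EXO-Palm. The difference was 0.62 (95% interval 0.13 to 1.11; limma adjusted p = 0.382, exact permutation p = 0.0286), and it was 0.54 and 0.56 within slides 1 and 3. Smpd4 had the largest fitted difference of the list, 1.24, but this rested on EXO-BSA replicate 4, which read -6.20 against -0.51 to -1.49 on the other EXO-BSA arrays. Without that array the difference was -0.08. Smpd3, the neutral sphingomyelinase linked to exosome release, was well above background on 1 of 4 EXO-BSA arrays and 0 of 3 EXO-Palm arrays and was not tested.

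Of the genes that carry ceramide on to glycosphingolipids, B4galt6, a lactosylceramide synthase, read 0.16, -0.25, -0.16 and -0.15 with EXO-BSA and -0.42, -0.52 and -0.67 with EXO-Palm. The groups did not overlap and the difference was -0.44 (limma adjusted p = 0.511, exact permutation p = 0.0286). B4galt5, the other lactosylceramide synthase, had a tested probe with -0.09 and overlapping groups, and a dim probe, A_51_P324535, that was not tested. The latter read -4.26, -4.03, -4.12 and -4.05 with EXO-BSA and -4.28, -4.42 and -4.34 with EXO-Palm, so that the groups were parted by 0.02. The ceramidases Acer1 and Acer3 differed by 0.25 and -0.04, and Psap, the precursor of proteins that help lysosomal enzymes to reach sphingolipids, by 0.05.

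Downstream of Sphk1, 7 probes for the removal, export and receptors of sphingosine 1-phosphate were tested. Of these, 6 were fitted lower and 1 higher, where 47.3% of all tested probes were fitted higher. Their median was -0.35 against -0.02 over all tested probes. None passed the test. S1pr5, a receptor, read -2.13, -2.40, -2.46 and -2.66 with EXO-BSA and -3.34, -2.80 and -3.87 with EXO-Palm. All EXO-Palm arrays lay below all EXO-BSA arrays, and the difference was -0.92 (95% interval -1.56 to -0.28; limma adjusted p = 0.299, exact permutation p = 0.0286), with -1.07 within slide 1 and -1.22 within slide 3. Spns2, the exporter, differed by -0.77 and the receptor S1pr2 by -0.72, each with overlapping groups and adjusted p-values of 0.479 and 0.506 from limma. S1pr1 was the 1 probe fitted higher (0.39), and S1pr4 was well above background on no array.

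**Figure D4:**
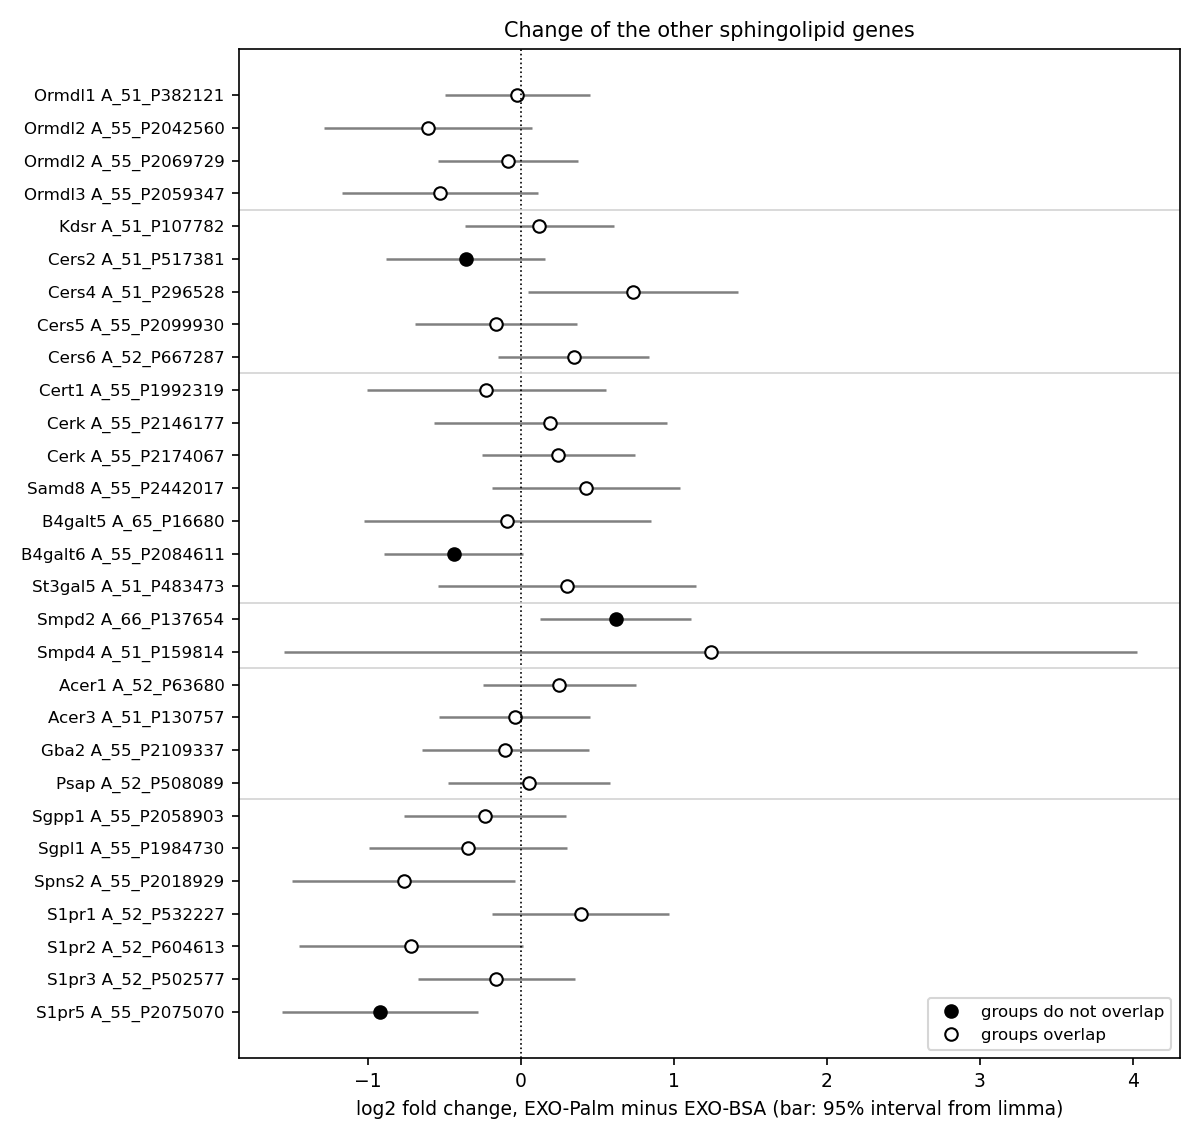
Points are the fitted log2 fold changes (x axis, EXO-Palm minus EXO-BSA) of 29 of the 30 tested probes of the other sphingolipid genes, grouped by step from serine palmitoyltransferase regulators (top) to sphingosine 1-phosphate receptors (bottom), and bars are 95% intervals from limma. Filled points mark probes whose groups do not overlap, which are Smpd2 (higher) and Cers2, B4galt6 and S1pr5 (lower). The wide bar is Smpd4, whose EXO-BSA replicate 4 read -6.20.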

How the data were processed

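For each array the authors deposited the scanner output, in which the intensity of each spot is background-subtracted and not yet normalised. A deposited table of the authors' log2 values, with nearly equal distributions on all arrays, was joined by spot order and served as an alternative. Per the labels, signals came from Agilent Feature Extraction 9.1 and were analysed with limma. The file headers name later software, and a different version for EXO-BSA replicate 3.

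From log2 of the intensity, the 75th percentile over each array's 43020 non-control spots was subtracted, without spots marked as outliers, and 399 probes printed 10 times were averaged. A probe was tested if either group had it well above background on 75% or more of its arrays. Groups were compared with limma 3.58.1 (R 4.3.3, with the package data.table, version 1.17.8; Benjamini-Hochberg over 21585 probes, threshold 0.05, 2-sided), and single probes and 4 gene pairs with exact 2-sided permutation tests. The pipeline was tested on simulated data. Precision is limited by 4 and 3 arrays, and where cultures were not separate, p-values measure only the spread between these samples.

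The genes, lists and tests were chosen with earlier results of these data known. Sphk1 is in the paper's supplementary gene list from these arrays, so its choice as a result of its own was not independent of them. Values per array are given for each of the 13 probes and for pathway genes whose groups do not overlap, and for Cers4. Otherwise the list is given by counts, medians and its 3 largest differences in each direction, and the values per array of Cers4, as well as Smpd3, Sptlc3, S1pr4 and the remaining genes named, were chosen after their values were seen. Of 40 gene names in the list, 34 are current mouse symbols and 6 synonyms. For 1 gene of the list, which is included in the counts, no values of its own are reported here.

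There were 21 alternative fits. They cover centring, quantile normalisation, normexp (offset 50, on median signals, since EXO-BSA replicate 3 has no mean signal), the authors' log2 values, the filter, flagged spots, array weights, variance model, slide, replicate block, the methods' t-test and each array left out. Differences within slides 1 and 3 were computed as well.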

Additional observations from a re-analysis of the deposited data

Results flagged for a closer look

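In Sphk1 probe A_51_P501248, EXO-BSA replicate 3 read 4.23 where the other EXO-BSA arrays read 3.75 to 3.78, so that 1 of 4 samples stood far from the others. It was the only array past the limit among the EXO-BSA values of 41 tested probes checked (12 of them of the 10 genes), and chance gives about 1 in 20. Smpd4 on EXO-BSA replicate 4 (-6.20 against -1.49 to -0.51) lay just under the limit, with a gap of 0.828 of the range. The output of EXO-BSA replicate 3 came from a different version of the scanner software than that of the other arrays. The part of this in its Sphk1 value was not tested. Without EXO-BSA replicate 3 the Sphk1 difference was 1.27 (limma adjusted p = 0.311). In the other Sphk1 probe, A_55_P2186005, the same array read 0.90, inside the range of the EXO-BSA arrays.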

How the results depend on the processing

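Sphk1 (A_51_P501248) was higher with EXO-Palm under every alternative, from 0.88 (without EXO-Palm replicate 3) to 1.83 (within slide 3), and 1.39 within slide 1. It passed the threshold only without EXO-Palm replicate 2 (1.49) and in the unadjusted t-test (1.15). Leaving out 1 array at a time gave 0.88 to 1.49. The number of the 13 probes called was 0 except for 4 in the unadjusted t-test and, leaving out arrays, 0 to 2. In the pathway list it was 3 in the unadjusted t-test and otherwise 0.

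Over all probes 115 were called, 100 higher and 15 lower. The count was 181 with slide as a random block, 173 with a trended and robust variance, 2108 in the unadjusted t-test, and 0 in the adjusted t-test, without the filter and with the replicate block. Leaving out 1 array gave 0 (EXO-BSA replicate 1) to 202 (EXO-Palm replicate 2). The number of calls thus depends on single arrays. Same-numbered arrays correlated at 0.12, -0.15 and -0.15 in their deviations from the group means, so the replicate numbers were not taken to pair the samples. Arrays of opposite groups on the same slide correlated at 0.12 and 0.31 (slide 1) and 0.18 (slide 3). Those on different slides correlated at -0.22 to 0.20. The consensus correlation with slide as a random block was 0.233. The main fit and the permutation tests took no account of slide. With the replicate block Sphk1 differed by 1.11 (limma adjusted p = 0.395), and no probe of the 10 genes was called.

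The median over the 13 probes, 0.10, was 0.0281 after quantile normalisation, 0.0279 after normexp, 0.0262 in the authors' values, 0.25 with slide as a fixed block and 0.40 within slide 1, and -0.0451 to 0.154 leaving out arrays, so that its sign is not settled. Signs also turned for Sptlc1 (-0.13 normexp, -0.11 authors' values, -0.0443 without EXO-Palm replicate 3, where leaving out arrays gave up to 0.41), Degs1 (0.0037 quantile, 0.19 normexp, 0.18 authors' values), Ugcg (0.25 and 0.0099 with slide as a fixed and a random block, 0.09 and 0.15 without EXO-BSA or EXO-Palm replicate 2, and -0.41 at the lowest without 1 array), Sgms2 (-0.11 without EXO-BSA replicate 1, -0.22 without EXO-Palm replicate 1, against 0.30 at the highest), Asah1 A_55_P1964154 (0.0018 authors' values) and Sgms1 relative to Sgms2 (-0.74 to 0.0514 leaving out arrays, above 0 without EXO-Palm replicate 1). The causes were not tested. Array centring moved the median of all tested probes to -0.08 at most. Precision is limited by the number of arrays, and for Sgms2, Sptlc2 probe A_52_P59916 and Cers4 by dim signals.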
